A study of Ovis aries with 18 samples.

Results

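The 7 genes FOXF2, CHST11, CCBE1, ADNP2, UBE3D, TTYH1 and ZBTB7C were examined in sheep embryos, among 20092 genes with read counts. They were chosen by name from the genes assigned to cytosines whose methylation differed (DMCs) in sperm of rams fed extra methionine. FOXF2, CHST11 and CCBE1 are among those that the study names for morphogenesis. ADNP2 and UBE3D are 2 that it selected because sperm methylation and embryo expression were correlated, negatively for ADNP2 and positively for UBE3D. TTYH1 and ZBTB7C appear only in the study's list of sites, the first with promoter sites and the second with an intron site. The sperm levels of all 7 genes, and the embryo expression of ADNP2 and UBE3D, are therefore described below without a test. The embryo expression of the other 5 genes had no part in the study's naming or listing of them and was tested, but all 7 were taken up here with earlier results of these data known.

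Sperm DNA methylation was measured by reduced representation bisulfite sequencing (RRBS) in 6 Polypay rams, and RNA was sequenced from 12 pools of their embryos, each pool holding 5. The 3 control rams (Ram410, Ram423 and Ram444) ate a basal diet, and the 3 methionine rams (Ram424, Ram498 and Ram511) ate the same diet with rumen-protected methionine, which passes the rumen intact, added on top at 1.5 g (0.22%). Feeding began before puberty, at 88 days of age on average, and lasted 77 days. Semen for RRBS was collected 1 month after feeding ended, and breeding took place about 2 months after it ended. The sperm measured are thus of an earlier ejaculate than those that sired the embryos. Superovulated Polypay ewes were bred to these rams and flushed 8 days after the rams were introduced. Each control ram had 2 pools, Ram424 had 4, and Ram498 and Ram511 had 1 each. Several pools have the same sire, and the dam of each pool is not given in the labels, so p-values over pools measure the spread between pools and not only between sires. The diet was given to rams. Such p-values take pools of a ram as independent and can therefore be too small for a difference between diets.

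The 7 genes have different roles. FOXF2 is a forkhead transcription factor of mesenchyme that acts in palate, gut and vessel wall development. ZBTB7C is a BTB zinc finger protein of the POK family of transcriptional repressors, and ADNP2 is a zinc finger homeobox protein related to the chromatin factor ADNP. CHST11 adds sulfate to chondroitin chains and is needed for cartilage growth. CCBE1 is a secreted protein that promotes the processing of the growth factor VEGFC and so the growth of lymphatic vessels. UBE3D is a ubiquitin ligase that binds B-type cyclins, and TTYH1 is a membrane protein of the tweety family that is abundant in neural cells. The embryo flushed about a week after mating is a blastocyst, which consists of trophectoderm, the outer layer that forms the placenta, and an inner cell mass with the hypoblast. The organs in which most of these genes are known to act have not formed at that stage.

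The 7 genes had 13 listed sperm sites among 1850625 measured cytosines, with 5 sites in CCBE1, 2 each in UBE3D and TTYH1 and 1 each in the other genes. Methylation was lower in methionine rams at 12 sites and higher at 1, in CHST11. The rams of the 2 diets did not overlap in level at any of the 13 sites, as in 2.43% of all cytosines, and this separation follows from the choice of the sites. The sites were covered by 10 to 52 reads per ram, which gave 95% Wilson intervals 11.4 to 51.9 points wide for the level of a single ram, for counting error only. Positions are those of the sheep build Oar_rambouillet_v1.0, and the genomic feature is the one that the study assigned.

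The FOXF2 site (chromosome 20, position 55156206, reverse strand) was intergenic. It was methylated in 100%, 97.1% and 95.8% of reads in Ram410, Ram423 and Ram444 of the control diet, and in 55.6%, 64.3% and 41.2% in Ram424, Ram498 and Ram511 of the methionine diet. The group means were 97.6% ± 2.14 and 53.7% ± 11.7 (SD, n = 3 each). The ZBTB7C site (chromosome 23, position 53448111) lay in an intron, in a repeat of the Bov-tA1 type. Its levels were 100%, 100% and 96.2% in control rams and 64%, 41.7% and 50% in methionine rams, with means of 98.7% ± 2.22 and 51.9% ± 11.3 (SD, n = 3). Both sites were thus almost fully methylated without the supplement and intermediate in each methionine ram. Bisulfite reads do not distinguish an unmethylated cytosine from a thymine in the genome, and the genotypes of the rams at the 13 sites were not examined here, so a level is the share of reads with a cytosine.

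The 2 intronic UBE3D sites (chromosome 8, positions 11335792 and 11335967) lay 175 bp apart and showed the same form. The first went from a mean of 96.1% ± 3.71 in control rams to 48.6% ± 11.6 in methionine rams, and the second from 100% to 51.2% ± 6.66 (SD, n = 3). At the second site all reads of the control rams were methylated, and the difference of -48.8 points was the widest among the 13 sites. CCBE1 had 4 intronic sites within 43 bp (chromosome 23, positions 64611437, 64611457, 64611473 and 64611480) and 1 more, site 5, at 64682789, 71309 bp from the fourth. The first 4 were 100% methylated in each control ram and averaged 55.0% to 66.6% in methionine rams, and since reads of 100 bases can cover all 4 they are not separate observations. Site 5 averaged 98.5% ± 2.62 and 54.8% ± 10.4 (SD, n = 3). The cytosine on the opposite strand of the same CpG was measured at none of the FOXF2, ZBTB7C, UBE3D and CCBE1 sites.

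ADNP2, TTYH1 and CHST11 had other starting levels. The exonic ADNP2 site (chromosome 23, position 592007) was at 53.8%, 73.1% and 66.7% in control rams and at 34.4%, 26.9% and 22.5% in methionine rams, a difference in means of -36.6 points. The 2 TTYH1 promoter sites (chromosome 14, positions 67943511 and 67943548) lay 37 bp apart. The first averaged 29.2% ± 2.62 in control and 4.36% ± 2.91 in methionine rams, and the second 47.2% ± 6.52 and 9.88% ± 3.35 (SD, n = 3). The intronic CHST11 site (chromosome 3, position 186106941) went the other way, from 6.45%, 3.57% and 6.45% in control rams to 55%, 27.3% and 38.1% in methionine rams. The opposite-strand cytosine was measured at these 4 sites, with differences of -13.7 points in ADNP2, -19.5 and -24.0 in TTYH1 and 26.8 in CHST11. The plot of levels by ram shows these forms side by side.

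**Figure D1:**
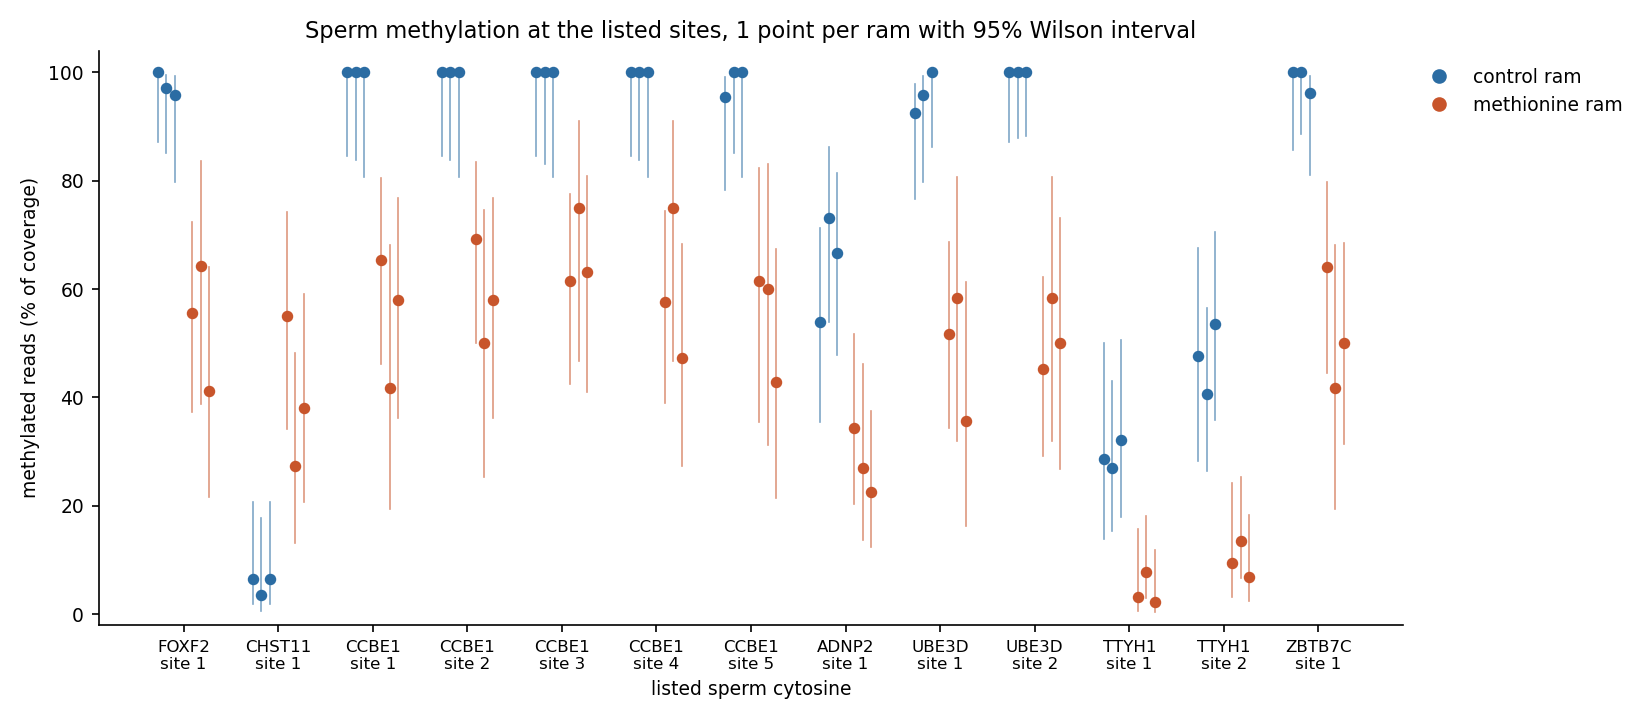
Methylated share of reads (%, y axis) at each of the 13 listed sperm sites (x axis), with 1 point per ram and bars for its 95% Wilson interval. Control rams (blue) lie above methionine rams (orange) at 12 sites, and below them at the CHST11 site, where control rams are at 3.57% to 6.45%.

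The listing rule asked for levels over 20 points apart between the diets at an FDR of 0.01, and differences in pooled reads were computed here to place sites against it. The site just inside the size limit was TTYH1 site 1, with a pooled difference of -24.4 points. Just outside it, the unlisted TTYH1 cytosine at position 67943510, its partner on the opposite strand of the same CpG, had -19.7 points, and an unlisted ADNP2 cytosine at position 592111 had -19.9.

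The cytosines around a listed site moved with it in some of the genes and not in others. Of all cytosines in the table, 1.12% had mean levels over 20 points apart between the diets. In FOXF2, 36 other cytosines were measured within 1 kb of the site, and none of them was over 20 points apart. They averaged 97.0% in control and 97.6% in methionine rams, with differences of -7.45 to 4.11 points, while the difference at the listed site was -44.0 points. The 1 other cytosine measured near the ZBTB7C site was at 98.7% in both diets, and the 1 measured near CCBE1 site 5 was at 100% in both. In the neighbourhood of the UBE3D sites no cytosine other than the listed pair was measured within 1 kb.

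In CHST11, by contrast, all 14 other cytosines within 1 kb were higher in methionine rams, by 22.1 to 34.7 points, with means of 8.70% and 38.1%. In TTYH1, 28 unlisted cytosines within 1 kb were all lower with methionine, 12 of them by over 20 points, and their mean was 33.8% in control and 13.8% in methionine rams. In ADNP2, all 26 unlisted cytosines within 1 kb were lower, 11 of them by over 20 points, with means of 69.4% and 51.0%. Around the cluster of 4 CCBE1 sites, 7 unlisted cytosines were measured within 1 kb, and 6 of them were over 20 points apart. One of these was 48.1 points higher in methionine rams, at 0.855% in control and 48.9% in methionine rams, while the other 4 cytosines measured on its strand had differences of -25.9 to -12.3 points. It was singled out after its values were seen. Cytosines read from the same fragments share reads, so these counts describe the regions and give no independent evidence on the listed sites.

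**Figure D2:**
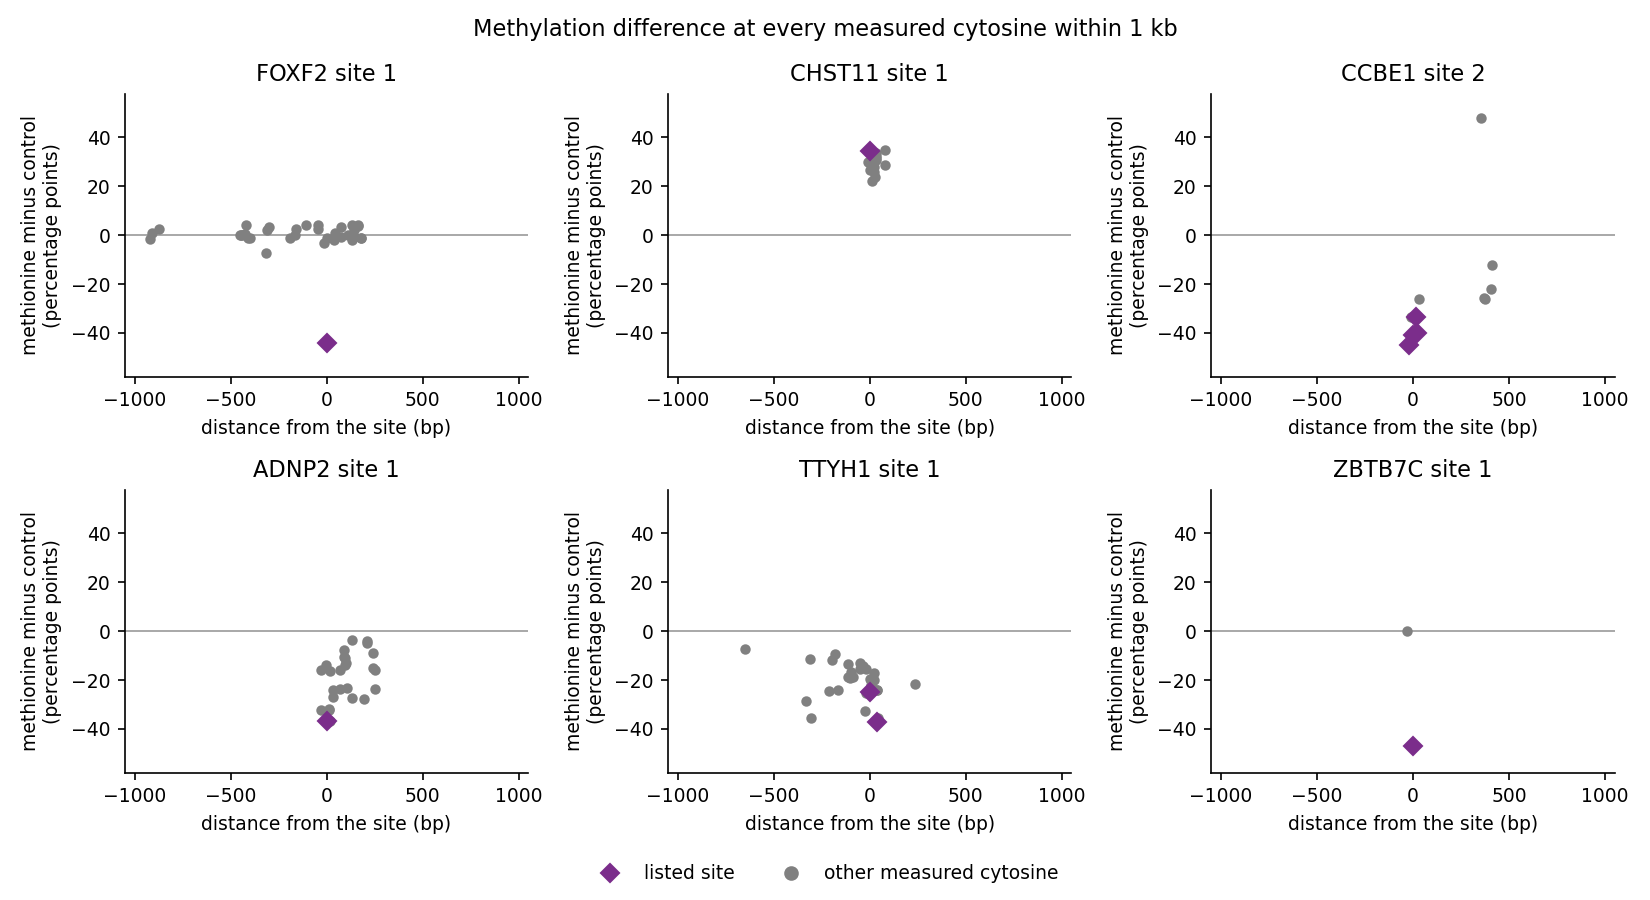
Mean methylation of methionine rams minus that of control rams (percentage points, y axis) against distance from the listed site (bp, x axis), for listed sites (purple diamonds) and all other cytosines measured within 1 kb (grey). The FOXF2 site stands alone below 36 cytosines near 0, whereas the cytosines around the CHST11, ADNP2 and TTYH1 sites lie on the same side of 0 as the listed sites.

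Pools held 1017847 to 2398589 counts in all, which is low for the sequencing that the study describes, and which strand was counted is not given in the sources used here. Expression is given as CPM, the read count divided by library size and scaled to the same total, with TMM factors that adjust library size for composition, and levels are compared between pools and not between genes, since transcript lengths were not used here. Pools Embryo444_2 (control) and Embryo511_1 (methionine) stood apart. Their median Spearman correlation with the other pools was 0.582 and 0.600, against 0.820 to 0.857 in the other 10 pools. The summed level of 7 trophectoderm markers was 220 and 191 CPM in these pools and 5173 to 14138 CPM in the others, and for 6 of the 7 markers both pools lay below all others. KRT8, a keratin of this epithelium, was at 114 and 42.0 CPM, against 3835 to 11687 CPM. The sums of 3 inner cell mass markers (48.1 and 173 CPM against 301 to 794) and of 5 hypoblast markers (268 and 285 against 412 to 946) were also below those of the other pools, but of single genes 1 in each list was below all other pools in both, POU5F1 and GATA6. The hypoblast marker FOXA2 was above them in both, at 39.1 and 13.7 CPM against at most 9.07 CPM. The sums of 6 mesenchyme markers (434 and 419 CPM against 211 to 305) and of 3 blood, endometrial and cumulus markers (169 and 286 against 57.7 to 112) were above those of the other pools. Of single genes, only 2 of the 6 and 1 of the 3 were above all other pools in both. Neural markers (6 genes, 221 and 169 CPM) lay within the range of the others, 105 to 229. The sum of 4 germ cell markers (TNP1, DAZL, DDX4 and ODF1) was 72.5 CPM in Embryo444_2 and 1049 CPM in Embryo511_1, against 47.2 to 90.9 CPM in the others. TNP1 alone was at 993 CPM in Embryo511_1. Each diet holds 1 of these pools, and pool Embryo511_1 is the only pool of its ram. The CPM means of the 7 genes, and their exact tests where made, are given with and without them. Correlations, gene lists and similar profiles are given only with them. In pooled embryos, fewer cells of a type and less RNA per cell cannot be told apart. Pools Embryo424_1 and Embryo424_2 were the most alike of all pairs, with a chi-square of 3.29 per degree of freedom over 16873 genes against at least 8.29 in every other pair, which is above sampling noise, and they were kept as 2 pools.

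All 7 genes had reads in all 12 pools. FOXF2 and CHST11 were near the detection limit, with 1 to 22 and 1 to 14 counts per pool, and both missed the filter of at least 15 counts in more than 3 pools that 16488 genes passed. The other 5 passed it. In none of the 7 genes were the pools of the 2 diets fully separated, as they were in 58 of the tested genes (0.352%). The mean was lower in embryos from methionine sires for 5 of the 7 genes. The share of all genes with a lower mean is not given here, and their median log2 fold change was 0.01. The 5 genes include UBE3D, chosen partly on embryo expression, and CHST11, whose sign turned over ram means.

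ZBTB7C was lower in most pools from methionine sires. In pools of control sires it was at 79.3 and 60.0 CPM for Ram410, 125 and 80.9 CPM for Ram423, and 38.4 and 189.7 CPM for Ram444. In pools of methionine sires it was at 16.0, 16.7, 32.0 and 27.6 CPM for Ram424, 69.4 CPM for Ram498 and 25.4 CPM for Ram511. Thus 5 of the 6 methionine pools lay below the lowest control pool, and pool Embryo498_1 lay among the control pools. The means were 95.6 ± 54.3 and 31.2 ± 19.7 CPM (SD, n = 6), 3.07-fold higher in control pools, and an exact two-sided permutation test over the 924 assignments of pools gave p = 0.00866. With the ram as the unit, the same exact permutation test gave p = 0.1, the smallest that 3 rams against 3 allow. The order of the ram means was 114 CPM for Ram444, 103 for Ram423, 69.6 for Ram410, 69.4 for Ram498, 25.4 for Ram511 and 23.1 for Ram424, so that Ram410 and Ram498, of different diets, were level. The highest pool was Embryo444_2, and without it and Embryo511_1 the means were 76.8 ± 32.1 and 32.3 ± 21.8 CPM (SD, n = 5, exact permutation p = 0.0317).

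FOXF2 was lower in embryos from methionine sires on few reads. Control pools held 4.45 and 6.28 CPM for Ram410, 12.0 and 6.95 CPM for Ram423, and 8.39 and 15.3 CPM for Ram444. Methionine pools held 4.24, 1.67, 4.87 and 2.91 CPM for Ram424, 5.93 CPM for Ram498 and 0.977 CPM for Ram511. The top pool, Embryo444_2, and the bottom pool, Embryo511_1, are those that stood apart, and 4 of 6 methionine pools were below the lowest control pool. The means were 8.90 ± 4.04 and 3.43 ± 1.92 CPM (SD, n = 6, exact permutation p = 0.00866 over pools and 0.2 over rams). Without the 2 pools they were 7.61 ± 2.82 and 3.92 ± 1.67 CPM (SD, n = 5, exact permutation p = 0.0317). Most of these levels rest on counts from 1 to 12, so their counting error is wide.

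ADNP2 had a higher mean in embryos from methionine sires, and these values had a part in its choice. Its level was 74.1 and 64.9 CPM for Ram410, 46.5 and 56.9 CPM for Ram423, and 52.4 and 41.1 CPM for Ram444. It was 102, 109, 65.4 and 64.4 CPM for Ram424, 84.8 CPM for Ram498 and 109 CPM for Ram511. Hence 4 of 6 methionine pools exceeded every control pool, and 2 pools of Ram424 lay below control pool Embryo410_1. The means were 56.0 ± 12.1 and 89.2 ± 20.9 CPM (SD, n = 6), 1.59-fold higher with methionine, and 59.0 ± 10.8 and 85.2 ± 20.6 CPM (SD, n = 5) without Embryo444_2 and Embryo511_1. The 4 pools of Ram424 formed a high and a low pair, and their mean of 85.3 CPM lies between the pairs, at a level that no pool of this ram had.

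UBE3D, the other gene chosen partly on embryo expression, showed a smaller difference. Control pools were at 34.8 and 24.4 CPM for Ram410, 33.8 and 22.8 CPM for Ram423, and 14.0 and 34.2 CPM for Ram444. Methionine pools were at 25.4, 17.9, 25.0 and 26.2 CPM for Ram424, 21.3 CPM for Ram498 and 16.6 CPM for Ram511. The lowest of all 12 pools, Embryo444_1, and 1 of the highest, Embryo444_2, had the same control sire, and every methionine pool lay within the control range. The means were 27.3 ± 8.40 and 22.1 ± 4.12 CPM (SD, n = 6). Without Embryo444_2 and Embryo511_1 they were 26.0 ± 8.60 and 23.2 ± 3.50 CPM (SD, n = 5).

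CHST11, the gene whose sperm site was more methylated with methionine, had 1 to 14 counts per pool. Control pools held 7.41 and 4.19 CPM for Ram410, 8.45 and 8.85 CPM for Ram423, and 9.79 and 0.697 CPM for Ram444. Methionine pools held 1.41, 5.58, 5.56 and 3.87 CPM for Ram424, 5.93 CPM for Ram498 and 9.77 CPM for Ram511. The 2 pools that stood apart took the lowest control value (Embryo444_2, 1 count) and the highest methionine value (Embryo511_1, 10 counts). With all pools the means were 6.56 ± 3.46 and 5.35 ± 2.74 CPM (SD, n = 6, exact permutation p = 0.5). Without these 2 pools they were 7.74 ± 2.16 and 4.47 ± 1.89 CPM (SD, n = 5, exact permutation p = 0.0317). Over ram means the difference was 0.0385 CPM with the sign turned (exact permutation p = 1, n = 3).

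CCBE1 was at similar levels in both diets. It was at 17.8 and 18.1 CPM for Ram410, 11.3 and 15.8 CPM for Ram423, and 10.5 and 18.8 CPM for Ram444. It was at 13.7, 16.7, 19.5 and 13.1 CPM for Ram424, 23.1 CPM for Ram498 and 8.79 CPM for Ram511. The highest and the lowest of all 12 pools were both of methionine sires. The means were 15.4 ± 3.64 and 15.8 ± 5.08 CPM (SD, n = 6, exact permutation p = 0.872 over pools and 0.9 over rams). Without Embryo444_2 and Embryo511_1 they were 14.7 ± 3.61 and 17.2 ± 4.19 CPM (SD, n = 5, exact permutation p = 0.341).

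TTYH1 varied more between the pools of Ram410 than between the diet means. Control pools were at 47.4 and 9.07 CPM for Ram410, 6.34 and 8.85 CPM for Ram423, and 21.0 and 11.9 CPM for Ram444. Methionine pools were at 16.0, 16.7, 6.95 and 7.26 CPM for Ram424, 5.34 CPM for Ram498 and 2.93 CPM for Ram511. The pools of Ram410 differed 5.23-fold and those of Ram424 up to 2.41-fold, and the diet means 1.89-fold. The means were 17.4 ± 15.6 and 9.20 ± 5.76 CPM (SD, n = 6, exact permutation p = 0.271 over pools and 0.2 over rams). Without the pools that stood apart they were 18.5 ± 17.1 and 10.5 ± 5.45 CPM (SD, n = 5, exact permutation p = 0.413). The 5 exact tests of FOXF2, ZBTB7C, CHST11, CCBE1 and TTYH1 are given unadjusted.

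**Figure D3:**
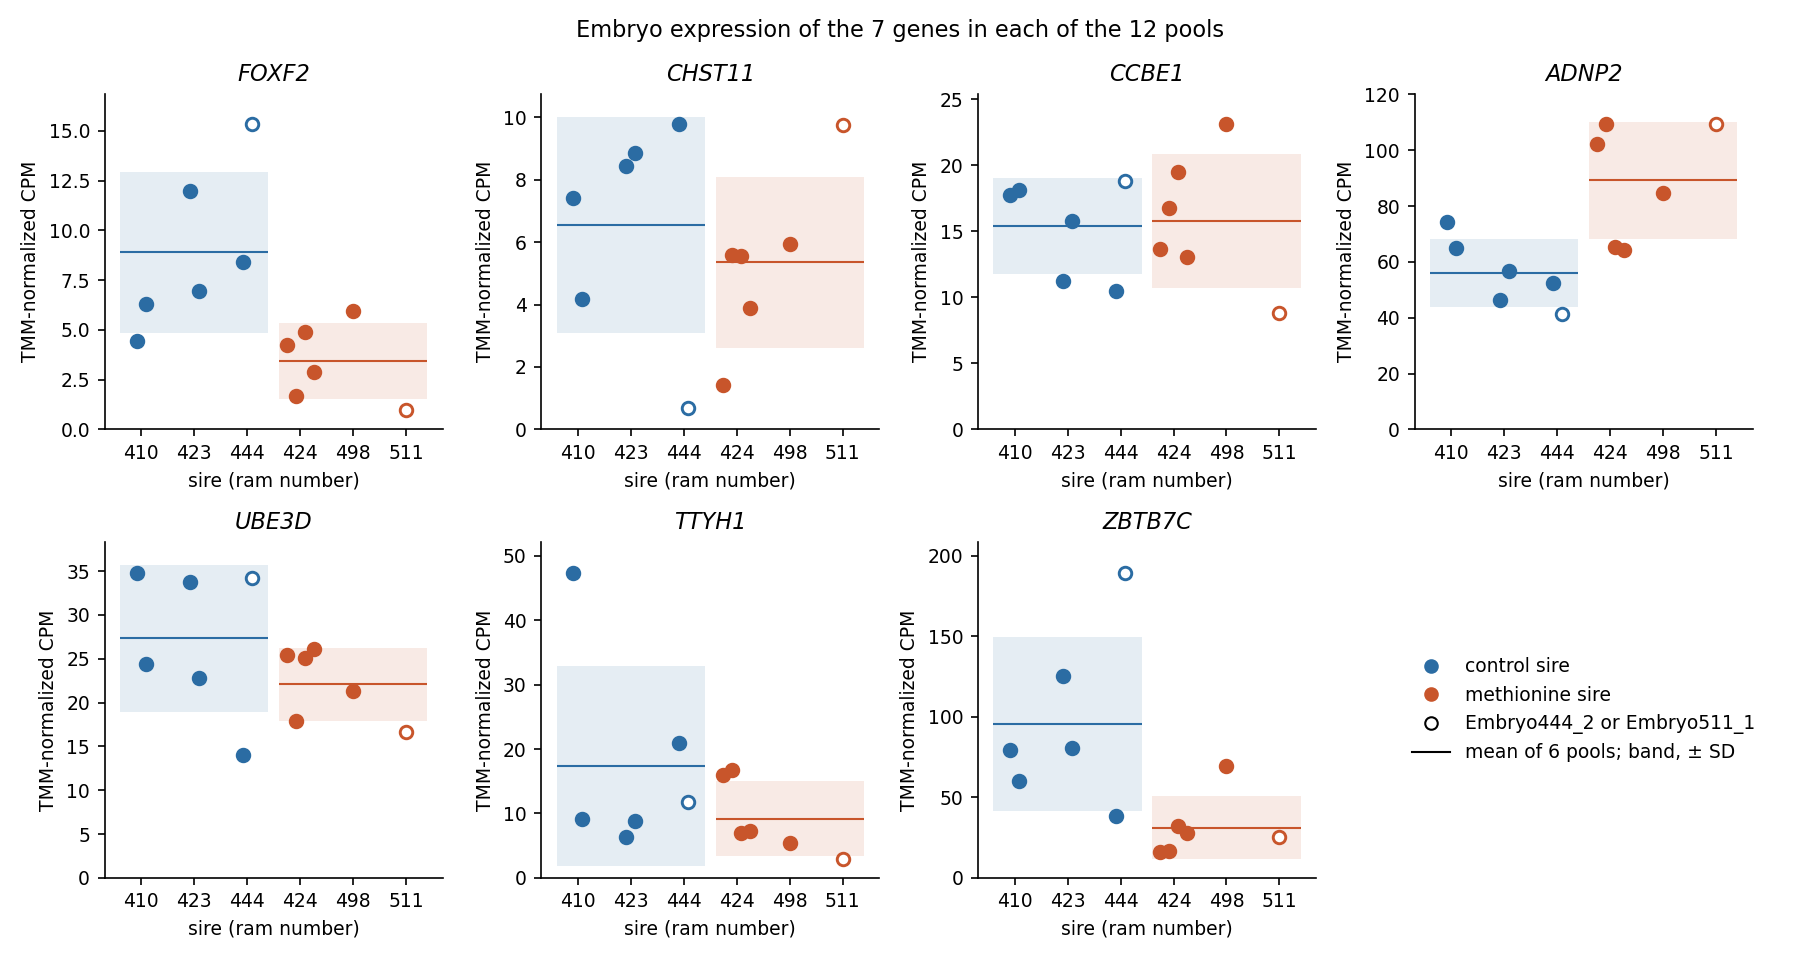
TMM-normalized CPM (y axis, linear from 0) of each gene in the 12 embryo pools, arranged by sire (x axis), with the mean of 6 pools per diet as a line and ± SD as a band. Open symbols mark pools Embryo444_2 and Embryo511_1. In ZBTB7C, 5 of 6 methionine pools lie below the lowest control pool, and in TTYH1 a single pool at 47.4 CPM lies far above the others.

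The 7 genes were compared with each other over the 12 pools, by Pearson's r of log2(CPM + 1). FOXF2 and ZBTB7C had r = 0.80, FOXF2 and ADNP2 -0.87, and ADNP2 and ZBTB7C -0.77. These pairs lay farthest from 0, and all other pairs were between -0.45 and 0.59. Pool Embryo444_2 was the highest in FOXF2 and ZBTB7C and the lowest in ADNP2. Pool Embryo511_1 was the lowest in FOXF2 and the highest in ADNP2, and r is not given without these 2 pools. The 12 pools share sires, diet and library composition, FOXF2 has few counts, and the values are a description.

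Across all tested genes, the quasi-likelihood test of edgeR called 0 genes at a false discovery rate (FDR) under 0.05 (0%), and 1306 genes (7.92%) had an unadjusted p under 0.05. That share takes pools of a ram as independent. It was 2.15% (355 genes) with the ram as a random effect and 3.47% (572 genes) with pools summed per ram. The median log2 fold change of all genes was 0.01. CCBE1, TTYH1 and ZBTB7C are the 3 fitted genes whose embryo expression had no part in the study's naming or listing. They were taken up here with earlier results of these data known, and 1 of them had an unadjusted p under 0.05. This was ZBTB7C, with a log2 fold change (methionine minus control) of -1.61 (SE 0.41, edgeR FDR 0.584), the 29th smallest p of all genes, and it had an unadjusted p under 0.05 in both of these fits too. CCBE1 had 0.04 (SE 0.32, edgeR FDR 0.981) and TTYH1 -0.88 (SE 0.53, edgeR FDR 0.694). ADNP2 had a log2 fold change of 0.67 (SE 0.23) and UBE3D of -0.30 (SE 0.28), given as a description. Without the filter, FOXF2 had -1.32 (SE 0.49, edgeR FDR 0.590) and CHST11 -0.32 (SE 0.55, edgeR FDR 0.896).

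The ZBTB7C difference kept its sign in every alternative fit, between -2.024 and -1.001. It was -1.26 without pools Embryo444_2 and Embryo511_1 (edgeR FDR 0.268). Leaving out the 4 pools of Ram424 gave -1.001 (edgeR FDR 0.685). Its unadjusted p was then no longer under 0.05 and ranked 2855th of all genes. Leaving out Ram498 gave -2.02 (edgeR FDR 0.522). TTYH1 ranged from -2.003 without Ram424 to -0.28 without pool Embryo410_1, always negative. ADNP2 stayed between 0.52 and 0.86 and UBE3D between -0.52 and -0.17.

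**Figure D4:**
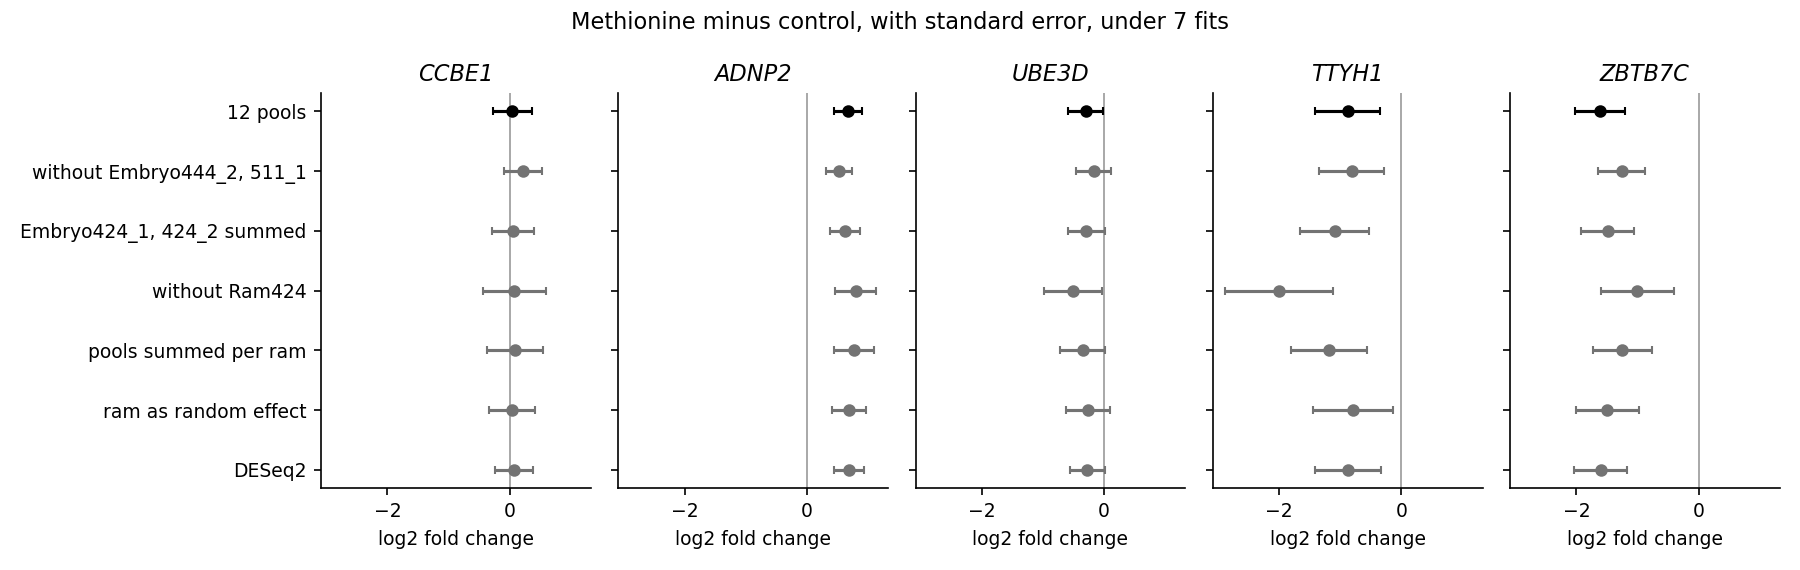
Log2 fold change of embryo expression, methionine minus control (x axis), with its standard error, for the 5 genes that passed the filter under 7 fits (y axis). ZBTB7C lies left of 0 and ADNP2 right of 0 in each fit shown, the TTYH1 interval is widest without Ram424, and CCBE1 stays near 0.

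Sperm levels, from semen collected before breeding, and embryo levels were set side by side for each ram. The rams form 2 separate groups at each site, by diet, so no correlation over all 6 was computed, and 3 rams per diet are too few for one within a diet. For ZBTB7C, the methionine ram with the lowest sperm level, Ram498 at 41.7%, had the highest embryo level of the methionine sires, 69.4 CPM, and Ram424 had the highest sperm level of them, 64%, and the lowest embryo mean, 23.1 CPM. For FOXF2 the order within the methionine rams was the opposite one, from Ram511 (41.2%, 0.977 CPM) through Ram424 (55.6%, 3.42 CPM) to Ram498 (64.3%, 5.93 CPM), whereas the control rams ran from Ram410 (100%, 5.36 CPM) to Ram444 (95.8%, 11.9 CPM). For ADNP2, Ram410 had the lowest sperm level of the control rams, 53.8%, and the highest embryo mean, 69.5 CPM. In ZBTB7C, FOXF2 and ADNP2, the Wilson intervals of the rams compared within a diet overlapped. These orders of sperm level therefore lie within counting error. The intervals for ZBTB7C were 19.3% to 68.0% in Ram498 and 44.5% to 79.8% in Ram424. Those for FOXF2 were 87.1% to 100% in Ram410 and 79.8% to 99.3% in Ram444. For CCBE1 the embryo means of the methionine rams spanned those of all control rams, from 8.79 to 23.1 CPM, at mean sperm levels of 53.8% to 63.1%. For CHST11, the single pool of Ram511, at a sperm level of 38.1%, held 9.77 CPM from 10 counts. This was above the mean of each control ram, but below control pool Embryo444_1 at 9.79 CPM. For TTYH1, Ram424 at a mean sperm level of 6.25% had a higher embryo mean, 11.7 CPM, than control Ram423 at 33.8%, with 7.59 CPM. For UBE3D, the embryo means of the control rams were 24.1 to 29.6 CPM and those of the methionine rams 16.6 to 23.6 CPM, at sperm levels of 96.3% to 100% and 42.9% to 58.3%.

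**Figure D5:**
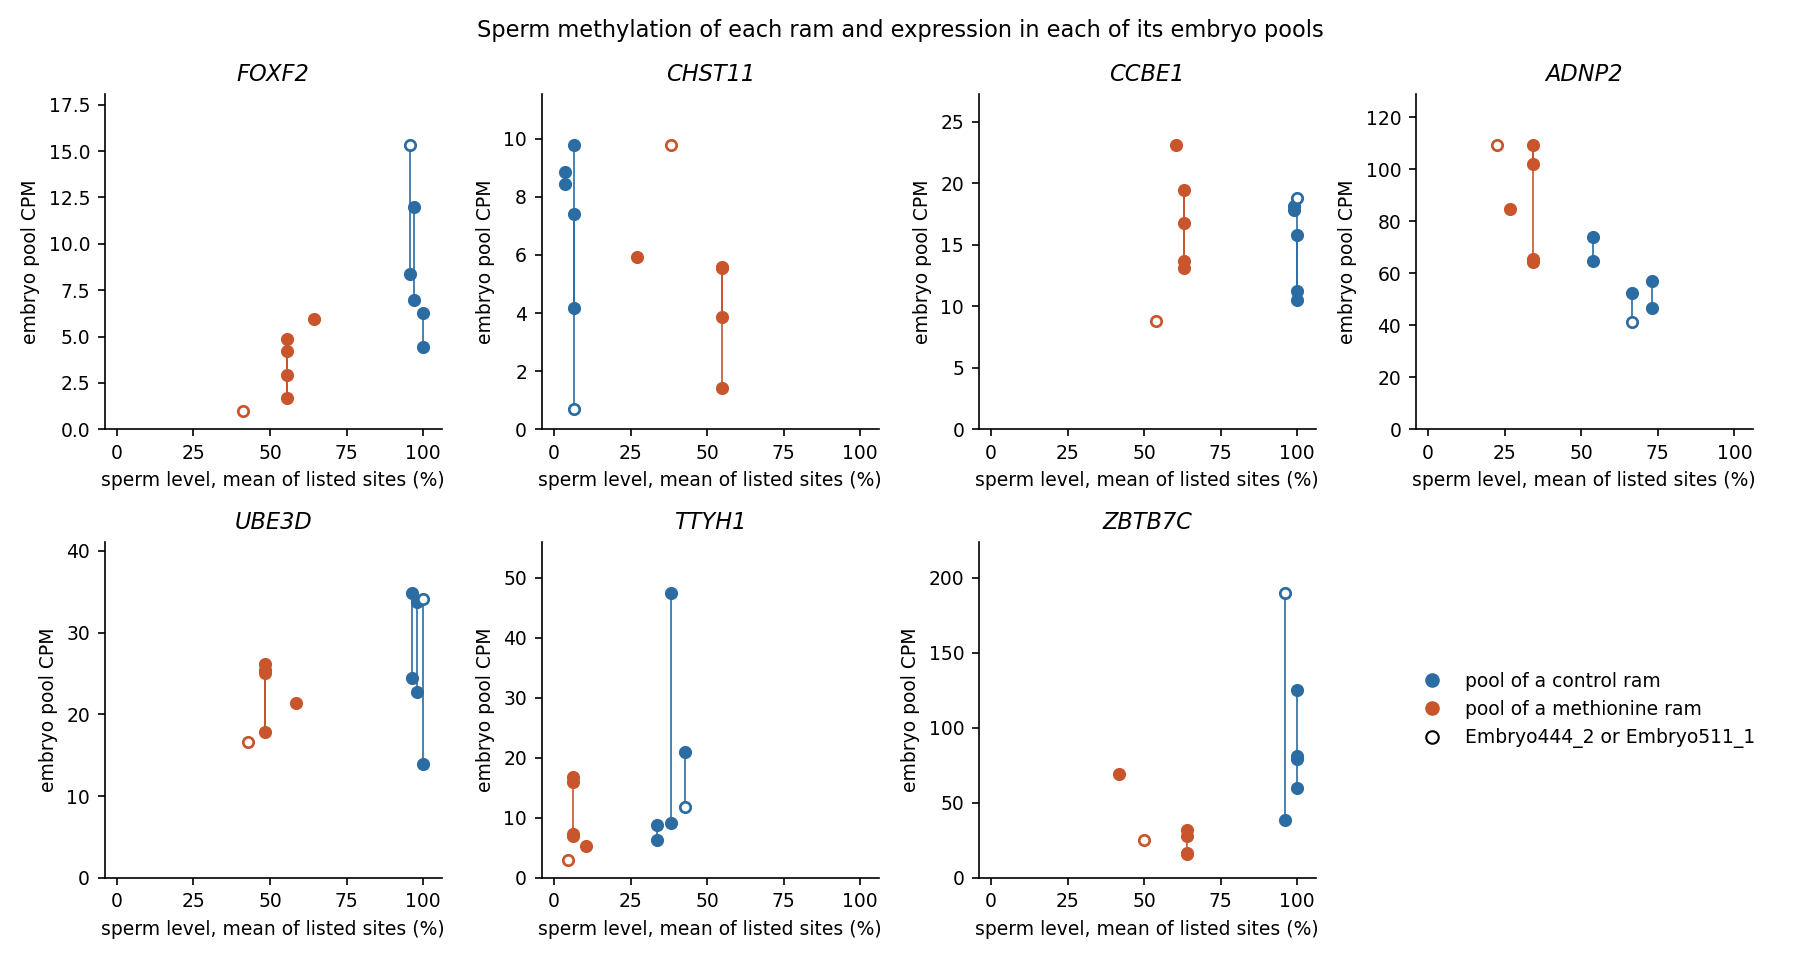
Mean sperm methylation over the listed sites of each gene (%, x axis) and CPM (y axis) in each embryo pool of that ram, with a line joining pools of a ram. Rams with equal sperm levels share a position on the x axis. Open symbols mark pools Embryo444_2 and Embryo511_1. The rams fall into 2 groups on the x axis in each panel, and pools of 1 ram spread widely on the y axis, as in TTYH1 for Ram410 (9.07 to 47.4 CPM).

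Genes that work with the 7 genes were examined as lists, in which 0 genes passed FDR under 0.05 by edgeR. The counts below are of unadjusted p under 0.05, for which the share over all genes was 7.92% with pools taken as independent. Of 13 tested forkhead, hedgehog and PDGF genes of early mesenchyme, the setting of FOXF2, 0 had such a p, with a median log2 fold change of -0.30. The ligand IHH had -0.90 (SE 0.46), the receptor PDGFRA -0.37 (SE 0.20), and its ligand PDGFA 0.37 (SE 0.58). Of 8 tested BTB zinc finger repressors related to ZBTB7C, 0 had one, with a median of -0.14. ZBTB16 had 0.61 (SE 0.31), ZBTB7B -0.57 (SE 0.39), ZBTB20 0.02 (SE 0.32) and BCL6 -0.18 (SE 0.23).

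Of 16 tested genes of ADNP, its chromatin partners and SWI/SNF subunits, 3 had a p under 0.05, all higher with methionine, with a median of 0.04. CBX1, a heterochromatin protein, had a log2 fold change of 1.95 (SE 0.72, edgeR FDR 0.584), with 281 CPM in pool Embryo511_1 and at most 59.8 CPM in any other. SMARCA4, a remodelling ATPase, had 0.60 (SE 0.23), and the third was ACTL6A with 0.80, named after its value was seen. CHD4 and ARID1A, the list genes with the highest CPM, had -0.10 (SE 0.32) and 0.47 (SE 0.39). Of 21 tested genes of chondroitin and dermatan sulfate synthesis, the pathway of CHST11, 2 were lower and 2 higher, with a median of -0.03. CHST7, another chondroitin sulfotransferase, had 1.15 (SE 0.34, edgeR FDR 0.584), from 18.3 ± 8.59 to 40.8 ± 11.7 CPM (SD, n = 6). B3GAT3, which completes the linker of the chain, had 1.22 (SE 0.41), with 92.5 CPM in pool Embryo424_3 and at most 23.7 CPM in any other. FAM20B had -0.02 (SE 0.23) and DSEL -0.34 (SE 0.26). The lower pair, named after their values were seen, were PAPSS2 at -0.79, which makes the sulfate donor, and CSGALNACT1 at -0.56.

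Of 10 tested genes of the VEGFC and lymphatic axis of CCBE1, 0 had a p under 0.05, with a median of -0.21. The receptor FLT4 had -0.38 (SE 0.22), LYVE1 -0.54 (SE 0.32), PDPN 0.37 (SE 0.53) and the coreceptor NRP2 -0.14 (SE 0.25). Of 7 tested genes, the UBE3 ligases, B-type cyclins and the E2 enzyme UBE2C, 1 was higher, CCNB3 at 0.91 (SE 0.34), with 147 CPM in pool Embryo511_1, and the median was 0.13. CCNB2 had -0.41 (SE 0.22), UBE2C 0.56 (SE 0.44) and UBE3B -0.35 (SE 0.28). Of 7 tested tweety and LRRC8 volume-regulated channels, 1 was lower, LRRC8C at -0.70 (SE 0.28), from 39.6 ± 13.9 to 24.4 ± 4.98 CPM (SD, n = 6), and the median was -0.17. LRRC8B had -0.33 (SE 0.24), LRRC8D 0.26 (SE 0.29), and TTYH2, a paralog of TTYH1, 0.04 (SE 0.42). TTYH3, another paralog, had -0.53 and was named after its value was seen.

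Another 11 genes with sperm DMCs, which the study names for the nervous system, were taken for comparison. Of these, 1 had a p under 0.05, with a median log2 fold change of 0.03. AK8, an adenylate kinase, had -1.37 (SE 0.36, edgeR FDR 0.584), and SLIT3, a guidance ligand, had 1.20 (SE 0.60), with 621 CPM in pool Embryo511_1 and at most 93.4 CPM in any other. Among the marker lists, the tested trophectoderm (7 genes), inner cell mass (3), hypoblast (3), mesenchyme (6), blood, endometrial and cumulus (3) and neural (5) markers had 0 genes with a p under 0.05 by diet, and 1 of 3 germ cell markers had one, TNP1, through pool Embryo511_1. With the ram as a random effect, where the share over all genes was 2.15%, such a p remained in CHST7, PAPSS2, SMARCA4 and AK8 and in no other gene of these lists. With pools summed per ram, where it was 3.47%, CHST7, B3GAT3, CBX1, AK8 and TNP1 kept one, and ZBTB16 and SLIT3 also had one. For the 7 genes, the part of the marker differences in the results above was not tested beyond leaving out pools Embryo444_2 and Embryo511_1. For the lists it was not tested, since their values are given only with these pools.

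The tested genes whose profile over the 12 pools was most like each fitted gene were found by Pearson's r of log2(CPM + 1). For ZBTB7C they were KCNJ8 (r = 0.91), GMPR (0.90) and LOC101107816 (0.89). For ADNP2 they were MSANTD2 (0.94), PDZD11 (0.93) and PAPOLG (0.91), and for UBE3D CALB1 (0.94), LOC101121400 (0.90) and CNTN1 (0.90). For CCBE1 they were LOC105605871 (0.95), GPC4 (0.93) and FDXR (0.89), and for TTYH1 MYDGF (0.97) and LOC101105957 (0.88). The pools share sires and library composition, and the highest values among 16488 genes were taken, so these are names of similar profiles only.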

How the data were processed

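The authors trimmed the RRBS reads, aligned them with Bismark to Oar_rambouillet_v1.0, removed duplicates by molecular identifier and deposited counts of methylated and unmethylated reads for cytosines with at least 10 reads in every ram. The authors aligned the reads of the amplified embryo RNA with STAR and deposited raw read counts of genes for every pool, and the strand setting is not given in the sources used here, so reads of overlapping genes cannot be told apart. The embryo RNA was amplified and its reads carry no molecular identifiers, so they are not independent molecules. Every column was mapped to a sample by its label. Pools totalled 1017847 to 2398589 counts.

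Genes that reached 15 counts in more than 3 pools were normalized by TMM and tested over all 12 pools with edgeR 4.0.16 (quasi-likelihood, R 4.3.3), with Benjamini-Hochberg FDR under 0.05. Between pools of the same ram, limma 3.58.1 gave a consensus correlation of 0.263, and the common biological coefficient of variation was 0.450. Exact two-sided permutation tests of mean CPM (numpy 2.4.6) used 924 assignments of pools, 252 without 2 pools, and 20 of rams. Wilson intervals were computed with scipy 1.17.1. Methylation levels are means over rams. The model was tested on simulated data in which all pools were independent. That test does not cover the correlation between pools of a ram or the pools that stood apart.

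The 7 genes and the gene lists were chosen with earlier results of these data known. The named genes are the 7, in each list the 2 with the smallest p and the 2 with the highest mean CPM, and for each fitted gene the 3 with the highest r, of which 1 for TTYH1 is not reported here. The rule asked for CPM per kb, but transcript lengths were not used here. Age of the rams, a covariate of the study's methylation model, was not used. Alternatives were the likelihood-ratio test, DESeq2 1.42.0, RLE scaling, other filters, a random effect of the ram, summing the pools of a ram, each pool and ram left out, pools Embryo444_2 and Embryo511_1 left out, and merged strands. A minimum of 20 reads was also set, but only at sites that already met it. Added after seeing the data were pools Embryo424_1 and Embryo424_2 taken as 1 sum, and the permutation tests without single pools and without Embryo444_2 and Embryo511_1. Some genes of the lists were not analysed here.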

Additional observations from a re-analysis of the deposited data

Results flagged for a closer look

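In the 14 groups of 6 pools examined (7 genes by 2 diets), 2 had a pool whose gap to its nearest neighbour was too large a share of the range by Dixon's criterion, and chance gives about 1 in 20 groups. TTYH1 was at 47.4 CPM in control pool Embryo410_1, against 6.34 to 21.0 CPM in the other control pools. The count of the pool was 64, and the other pool of the same ram had 13. ZBTB7C was at 69.4 CPM (117 counts) in methionine pool Embryo498_1, against 16.0 to 32.0 CPM in the other methionine pools. It is the only pool of Ram498, so pool and ram cannot be told apart.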

How the results depend on the processing

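The number of genes called by diet was 0 with the quasi-likelihood method of edgeR (1306 genes had an unadjusted p under 0.05), 5 with the likelihood-ratio test (C20H6orf136, CERS1, HRC, LOC114111604 and UNC93A), 16 with DESeq2 and 1 without pools Embryo444_2 and Embryo511_1 (MROH5), and 0 in the other alternatives. The number with an unadjusted p under 0.05 was 355 with the ram as a random effect and 572 with pools summed per ram. These 6 genes were named after their values were seen and include none of the 7, and ZBTB7C had an FDR of 0.0819 with DESeq2. Of 135 alternative log2 fold changes of the fitted genes, 129 kept their direction. The 6 that reversed were all of CCBE1, which ranged from -0.094 to 0.17 when each pool or ram was left out in turn, with a permutation p of 0.444 to 0.944 and a difference of -1.04 to 1.83 CPM when each pool was. Without both Embryo444_2 and Embryo511_1 these values for CCBE1 were 0.21, 0.341 and 2.52 CPM. Permuting rams in place of pools gave p = 0.2 for FOXF2, 0.1 for ZBTB7C and 1 for CHST11 (exact tests), whose difference reversed to 0.0385 CPM, and 20 assignments cannot give less than 0.1. Without Embryo444_2 and Embryo511_1, CHST11 had an exact permutation p of 0.0317. The cause of these changes was not tested. Of 99 alternative methylation differences, 96 moved by less than the spread between rams, and 3 moved when strands were merged, ADNP2 to -24.8 and TTYH1 to -22.0 and -30.5 points. The 96 include the minimum of 20 reads, which cannot change a value at the sites that met it, those of CHST11, ADNP2 and TTYH1. The FOXF2, CCBE1, UBE3D and ZBTB7C sites each had a ram with fewer reads, so they would be lost under that minimum. No paired analysis was possible because no ram or pool number is shared between the diets. Depth limits FOXF2 and CHST11, with at most 22 and 14 counts in a pool.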
